A study of Mus musculus with 12 samples.

Results

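The genes of cholesterol synthesis followed here are *Srebf2*, *Insig1*, *Hmgcs1*, *Idi1*, *Fdps*, *Fdft1*, *Sqle*, *Lss* and *Cyp51*, 9 of the 20660 genes that could be named on the arrays. They were taken as a fixed list, which was chosen with earlier results of these data known. Each spot was matched to its gene through the RefSeq accession printed in the scanner files. The 9 genes have 11 probes, and all 11 were bright enough to be tested. *Fdft1* and *Srebf2* have 2 probes each and the other 7 genes have 1. Each gene was read from its brightest probe.

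Animal cells build cholesterol from acetyl-CoA, first through the mevalonate pathway to farnesyl diphosphate and then through squalene and lanosterol. Most genes of the route share a transcription factor, SREBP-2, the product of *Srebf2*. It is held in the membrane of the endoplasmic reticulum with its partner Scap by Insig proteins while sterols are plentiful, and when sterols fall it is carried to the Golgi, cut by a pair of proteases and released to the nucleus. White fat is a large store of free cholesterol, much of it taken up from lipoproteins, and brown fat burns lipid for heat. LR11, the product of *Sorl1*, is a sorting receptor that has domains of the LDL receptor family, which ties it by structure to lipoprotein receptors.

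RNA came from subcutaneous white fat (scWAT) and brown fat (BAT) of WT and *Lr11* -/- mice, and was measured on 12 one-colour Agilent arrays, 3 for each of the 4 groups. By the labels all mice were C57Bl6/J males of 12 weeks, the *Lr11* -/- mice carried a deletion of *Lr11* (*Sorl1*) with no tissue-specific driver named and were set against wild-type littermates, and both genotypes ate a high-fat diet (HFD) with 60% of its calories from fat. The labels give 4 weeks of HFD in one place and HFD from weaning in another, so the length of the diet is not settled. They do not say whether the 3 arrays of a group came from separate mice, so p values measure the spread between these samples. Nor do they say whether scWAT and BAT came from the same mice, and all 12 arrays were fitted as independent. Values are log2 intensities minus the 75th percentile of their array, so 0 marks the brightness of that percentile and a difference of 1 is a doubling. A level is never set against that of another gene, because each probe binds with its own strength.

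Several arrays stood apart before any comparison was made. Array 1 of each group belongs to a first array series and arrays 2 and 3 to a second, and array 1 of both scWAT groups shared a slide, array 1 of both BAT groups shared another, and all arrays of the second series shared one more. Transcripts of skeletal muscle (mean of 8 genes) lay between 5.37 and 8.35 on 5 arrays, WT scWAT 3, *Lr11* -/- scWAT 1, WT BAT 1, WT BAT 3 and *Lr11* -/- BAT 1, and between -4.37 and -2.81 on the other 7. All 8 were above background on those 5 arrays, and 3 to 5 of them on the others. All 6 white adipocyte genes were above background on every array and all 8 brown adipocyte genes on every BAT array. WT scWAT 2 had the lowest mean of 6 white adipocyte genes (3.66, against 5.91 to 7.72 on the other arrays) and the highest mean of 5 macrophage genes (2.83). *Lr11* -/- scWAT 1 had a mean of 8 epithelial genes of -0.58, against -3.60 or less elsewhere. The mean of 8 brown adipocyte genes was -0.48, -2.50 and 2.17 on the WT scWAT arrays, 2.43, 5.22 and 5.27 on those of *Lr11* -/- scWAT and 4.81 to 5.94 on BAT arrays. *Ucp1*, the heat-producing uncoupling protein, read -4.63, -4.52 and 2.92 for WT scWAT and 4.39, 9.75 and 10.05 for *Lr11* -/- scWAT. *Sorl1* itself was lower in *Lr11* -/-, with log2 differences of -4.34 in scWAT (limma, adjusted p = 0.0063) and -3.63 in BAT (adjusted p = 0.032), and every *Lr11* -/- array lay below every WT array of its tissue. Fits without the muscle-rich arrays and with the muscle mean as a covariate are given below. No such fit was made for macrophage, epithelial or brown adipocyte transcripts. Whether any of these transcripts caused the results below was not tested, and in bulk tissue fewer cells of a type and less RNA per cell cannot be told apart.

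Promoters are shown first because most of the 9 genes have a known regulator in common. The table of promoters from RefSeq (build GRCm38.p6, which the array's design did not use) holds 6 of the 9 genes, and the 250 bases before the start of transcription were read for each. Capitals mark 3 motifs, searched on both strands: CCAAT, which reads ATTGG on the other strand, the box bound by NF-Y, a factor known to work beside SREBP, CACGTG, an E-box that reads the same on both strands, and TCACNCCAC, which reads GTGGNGTGA on the other strand, the core of the classical sterol response element. The motifs do not overlap in the windows shown. *Hmgcs1*, *Insig1* and *Lss* are printed as the 3 genes with the widest genotype differences in the second array series, and *Srebf2* as the regulator. The windows lie on the + strand at chr13:119690101-119690350 for *Hmgcs1*, chr5:28071162-28071411 for *Insig1*, chr10:76531355-76531604 for *Lss* and chr15:82147019-82147268 for *Srebf2*.
Hmgcs1: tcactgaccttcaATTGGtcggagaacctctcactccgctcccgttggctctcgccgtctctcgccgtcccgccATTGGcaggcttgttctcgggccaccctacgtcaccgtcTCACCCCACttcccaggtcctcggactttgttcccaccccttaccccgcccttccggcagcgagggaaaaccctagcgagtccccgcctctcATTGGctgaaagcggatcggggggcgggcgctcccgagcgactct
Insig1: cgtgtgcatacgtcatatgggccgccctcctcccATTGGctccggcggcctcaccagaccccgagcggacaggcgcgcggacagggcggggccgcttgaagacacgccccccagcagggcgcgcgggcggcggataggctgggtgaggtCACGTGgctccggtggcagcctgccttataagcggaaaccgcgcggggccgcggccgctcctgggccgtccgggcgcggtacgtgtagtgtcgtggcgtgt
Lss: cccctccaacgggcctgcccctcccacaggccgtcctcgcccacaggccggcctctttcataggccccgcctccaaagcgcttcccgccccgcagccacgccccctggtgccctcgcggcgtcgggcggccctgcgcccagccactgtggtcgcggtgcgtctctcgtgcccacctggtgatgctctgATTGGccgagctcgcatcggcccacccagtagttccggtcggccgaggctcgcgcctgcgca
Srebf2: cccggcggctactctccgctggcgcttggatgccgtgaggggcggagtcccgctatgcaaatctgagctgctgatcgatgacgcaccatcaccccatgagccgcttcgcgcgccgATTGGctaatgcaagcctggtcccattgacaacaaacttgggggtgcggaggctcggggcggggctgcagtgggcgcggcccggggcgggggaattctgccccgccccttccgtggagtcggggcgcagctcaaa
CCAAT or ATTGG was present in all 6 windows, 3 times in *Hmgcs1*, against 33.8% of the 32851 promoters in the table. *Hmgcs1* was the one window with TCACNCCAC, 137 bases before the start, which 1.05% of all promoters hold. The one CACGTG lay 101 bases before the start of *Insig1*, and 6.02% of all promoters have it. In *Idi1* and *Cyp51* the box nearest to the start lay 14 and 29 bases before it. These matches describe letters in a window and say nothing about binding.

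The levels of the 9 genes were first compared by group. All 9 were above background on all 12 arrays. Their spread was wide in scWAT and narrow in BAT. Over the 9 genes the median SD between the 3 arrays of a group was 1.29 in WT scWAT and 1.01 in *Lr11* -/- scWAT, but 0.42 in WT BAT and 0.29 in *Lr11* -/- BAT. All tested probes had median SDs of 0.52, 0.37, 0.24 and 0.21 in the same order. The median of the 9 genes was thus above that of all probes in every group, and most of all in scWAT. Some of the genes lay below the probe median, such as *Fdft1* (0.16) and *Srebf2* (0.24) in *Lr11* -/- scWAT and *Lss* (0.13) in *Lr11* -/- BAT.

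**Figure D1:**
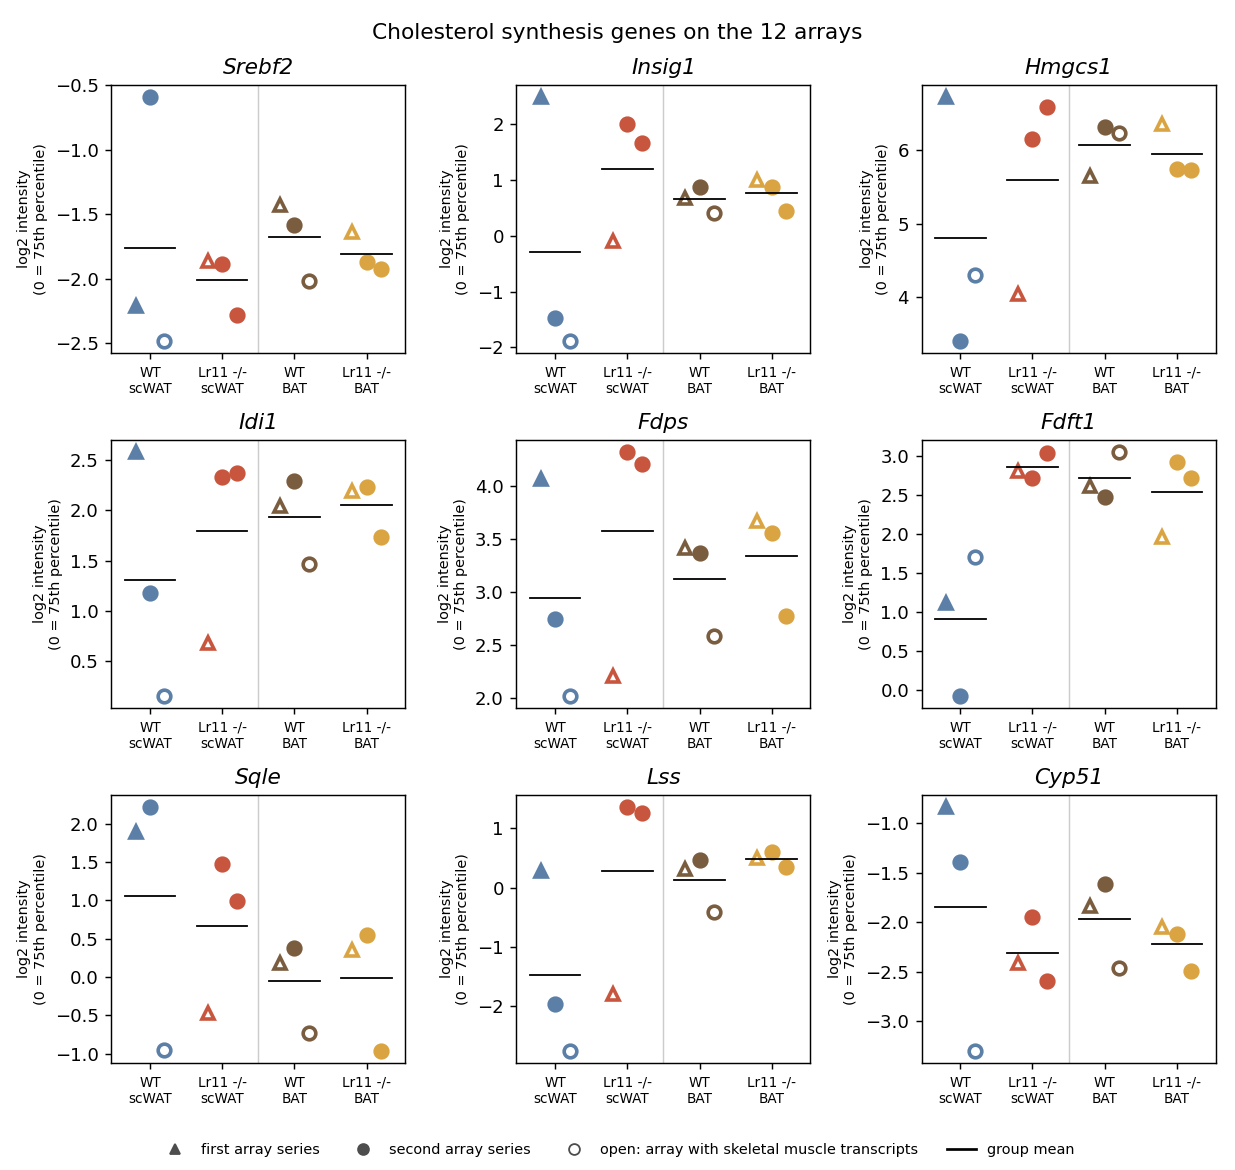
Log2 intensity of the 9 genes (y axis, 0 is the array's 75th percentile) on the 3 arrays of each group (x axis), with black lines for group means, triangles for the first array series, circles for the second and open symbols for the 5 arrays rich in skeletal muscle transcripts. *Fdft1* separates both genotypes in scWAT (-0.07 to 1.70 against 2.72 to 3.04), while for the other genes the genotypes overlap there. Most of those are spread widely in both scWAT groups, but *Srebf2* and *Cyp51* only in WT scWAT.

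Of the regulators, *Srebf2* had group means close to each other on its brighter probe. It read -2.21, -0.59 and -2.48 on WT scWAT arrays 1, 2 and 3 and -1.86, -1.89 and -2.28 on the *Lr11* -/- scWAT arrays. In BAT its values were -1.43, -1.58 and -2.02 in WT and -1.64, -1.87 and -1.92 in *Lr11* -/-. WT scWAT 2 lay above all other arrays, and the groups overlapped. The second probe of *Srebf2* put the same array highest, at 1.55 against -1.09 and -2.10 on the other WT scWAT arrays, and gave wider differences, of -1.43 between the genotypes in scWAT (SE 0.73, limma, adjusted p = 0.23) and -1.99 between BAT and scWAT of WT (adjusted p = 0.070), where the brighter probe gave -0.25 and 0.09. Both probes were above background on all arrays. That is the array with the low white adipocyte mean and the high macrophage mean.

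*Insig1* encodes an anchor that keeps SREBP in the endoplasmic reticulum and is itself switched on by SREBP. Its values in WT scWAT were 2.48, -1.46 and -1.88, those in *Lr11* -/- scWAT -0.09, 2.0 and 1.67. In BAT the 6 arrays lay between 0.42 and 0.99. The scWAT arrays thus held both the highest and the lowest values of the gene, in WT, and its SD there was 2.41, the widest of any of the 9 genes in any group.

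The early enzymes were high on the same 3 scWAT arrays as *Insig1*. *Hmgcs1*, which makes HMG-CoA and opens the mevalonate pathway, read 6.72, 3.40 and 4.30 in WT scWAT, 4.04, 6.15 and 6.58 in *Lr11* -/- scWAT, 5.65, 6.32 and 6.23 in WT BAT and 6.36, 5.74 and 5.73 in *Lr11* -/- BAT. WT scWAT 1 and *Lr11* -/- scWAT 2 and 3 were as high as BAT, and the other 3 scWAT arrays lay below every BAT array.

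*Idi1*, the isomerase of the isoprene units, read 2.58, 1.18 and 0.15 in WT scWAT, then 0.68, 2.33 and 2.38 in *Lr11* -/- scWAT. Its BAT values ran from 1.47 to 2.29. *Fdps*, which joins those units to farnesyl diphosphate, read 4.06, 2.74 and 2.02 in WT scWAT, then 2.21, 4.32 and 4.21 in *Lr11* -/- scWAT, with 2.59 to 3.67 in BAT. In both genes the high scWAT arrays were again WT scWAT 1 and *Lr11* -/- scWAT 2 and 3.

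*Fdft1* went another way. This gene encodes squalene synthase, the first step committed to sterols. It read 1.12, -0.07 and 1.70 in WT scWAT, then 2.81, 2.72 and 3.04 in *Lr11* -/- scWAT, so the genotypes did not overlap. The BAT values were 2.62, 2.47 and 3.05 in WT and 1.97, 2.92 and 2.72 in *Lr11* -/-. All 3 *Lr11* -/- scWAT arrays lay within the range of BAT, and all 3 WT scWAT arrays lay below every BAT array. The SD in *Lr11* -/- scWAT was 0.16, the narrowest of the 9 genes there.

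*Sqle*, which puts the oxygen on squalene, read 1.89, 2.22 and -0.95 in WT scWAT, -0.46, 1.48 and 1.0 in *Lr11* -/- scWAT and -0.96 to 0.55 in BAT. WT scWAT 3 and *Lr11* -/- scWAT 1, both rich in muscle transcripts, were the low scWAT arrays. *Lss*, which closes squalene epoxide to lanosterol, read 0.28, -1.96 and -2.75 in WT scWAT, then -1.80, 1.36 and 1.26 in *Lr11* -/- scWAT, against -0.41 to 0.60 in BAT. Here WT scWAT 2 joined the low arrays. *Cyp51*, the demethylase that acts on lanosterol, read -0.83, -1.40 and -3.30 in WT scWAT, then -2.41, -1.95 and -2.59 in *Lr11* -/- scWAT, with -2.49 to -1.61 in BAT. Its highest and lowest values were both in WT scWAT.

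Ordered by group mean, WT scWAT was lowest for 6 of the 9 genes (*Hmgcs1*, *Idi1*, *Fdps*, *Fdft1*, *Lss* and *Insig1*) and highest for *Sqle* and *Cyp51*. Neighbours in these orders lay closer than the larger of their SDs, apart from WT scWAT and the next group for *Fdft1*, with a gap of 1.62 against an SD of 0.90, and for *Lss*, with a gap of 1.6 against 1.57.

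The genotype comparison in scWAT asks whether loss of LR11 changes the pathway in white fat. *Fdft1* was higher in *Lr11* -/- scWAT, by 1.94 on the log2 scale (SE 0.42, 95% interval 1.02 to 2.86, 3.84-fold, limma, adjusted p = 0.040, n = 3 arrays a group). It was the one gene of the 9 past an adjusted p of 0.05, and over all probes 1692 of 32121 (5.27%) passed, so 1 call in 9 genes is near the background. It was also the one gene without overlap between the genotypes, which 20.4% of all probes showed. For the other 8 genes the differences were 1.75 for *Lss* (adjusted p = 0.22), 1.48 for *Insig1* (0.34), 0.78 for *Hmgcs1* (0.56), 0.64 for *Fdps* (0.54), 0.49 for *Idi1* (0.63), -0.25 for *Srebf2* (0.73), -0.38 for *Sqle* (0.79) and -0.47 for *Cyp51* (0.59). Their 95% intervals all include 0, and the interval of *Lss* runs from -0.19 to 3.68, that of *Insig1* from -0.65 to 3.61.

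The call of *Fdft1* depended on the settings. With the slide as a block its adjusted p was 0.053, with no scaling 0.075, and with the scWAT arrays fitted alone 0.31, with the same direction each time. Left without WT scWAT 2 its difference was 1.45 (adjusted p = 0.081), and its adjusted p also rose above 0.05 when *Lr11* -/- scWAT 2 or 3 or any one BAT array was left out (0.060 to 0.17). The second probe of *Fdft1* is dim, with a mean of -4.17 and 6 arrays not well above background, and gave a difference of -0.11 (SE 0.63, adjusted p = 0.93). Without the 5 arrays rich in muscle transcripts the difference was 2.36 (adjusted p = 0.038).

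**Figure D2:**
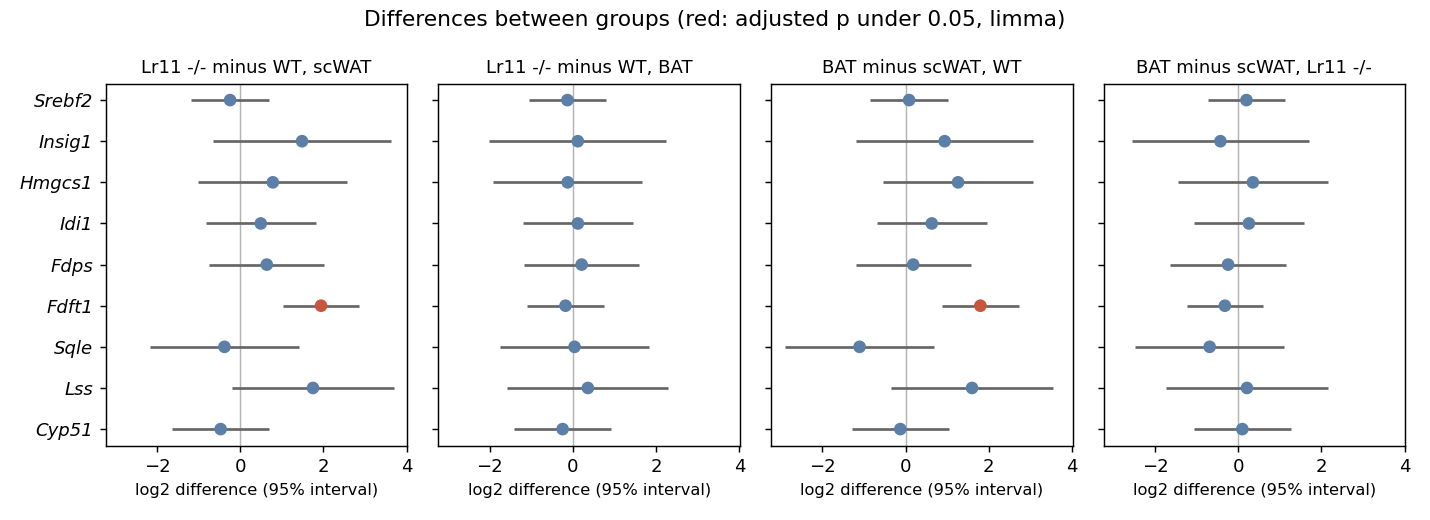
Log2 differences (points) with 95% intervals from limma (lines) for the 9 genes in 4 comparisons, with red points at an adjusted p under 0.05. *Fdft1* is the red point in scWAT between genotypes (1.94) and between BAT and scWAT of WT (1.80), and every other interval includes 0.

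Within the array series the scWAT genotype difference turned sign for 8 of the 9 genes. In the first series, 1 array a group, 7 genes were lower in *Lr11* -/-, with log2 differences of -2.68 for *Hmgcs1*, -2.57 for *Insig1*, -2.35 for *Sqle*, -2.08 for *Lss*, -1.90 for *Idi1*, -1.86 for *Fdps* and -1.58 for *Cyp51*. In the second series, 2 arrays a group, the same 7 were higher, by 2.51, 3.51, 0.60, 3.66, 1.69, 1.88 and 0.08 in the same order. *Srebf2* turned the other way, from 0.36 to -0.55. *Fdft1* alone kept its sign, with 1.70 in the first series and 2.06 in the second. Over all probes 50.4% turned sign between the series and 27.7% went from lower to higher. A turn from below -1 to above 1 was seen for 5 of the 9 genes (*Hmgcs1*, *Idi1*, *Fdps*, *Lss* and *Insig1*) and for 2.62% of all probes, and 5.43% of all probes turned by as much in either direction. The first series has 1 array a group, so no test can be made in it. Its *Lr11* -/- array is rich in muscle transcripts and its WT array is not, while in the second series WT scWAT 3 is rich in them.

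In the second series alone limma called 6 of the 9 genes in scWAT (*Insig1* with an adjusted p of 0.0035, *Lss* 0.0050, *Hmgcs1* 0.0075, *Fdps* 0.026, *Idi1* 0.040 and *Fdft1* 0.047), and 22.6% of all probes were called there. The 2 WT arrays of that series are the ones with the low adipocyte mean and with muscle transcripts. With the 5 muscle-rich arrays left out, WT scWAT 1 and 2 were set against *Lr11* -/- scWAT 2 and 3, and *Fdft1* was again the one gene called, with 11.2% of all probes. *Lss* (2.15), *Insig1* (1.33), *Hmgcs1* (1.30), *Fdps* (0.86) and *Idi1* (0.47) were then higher in *Lr11* -/- and *Cyp51* (-1.15), *Sqle* (-0.82) and *Srebf2* (-0.68) lower, with none of the 8 past the threshold. Leaving out single scWAT arrays added other genes beside *Fdft1*: *Insig1* at 2.87 (adjusted p = 0.019) without WT scWAT 1, *Cyp51* at -1.20 (adjusted p = 0.037) without WT scWAT 3, and *Lss* at 2.78 (adjusted p = 0.024) without *Lr11* -/- scWAT 1. The shares of all probes called in these fits were 13.7%, 14.4% and 19.8%, so 2 of 9 genes is near the background in each.

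**Figure D3:**
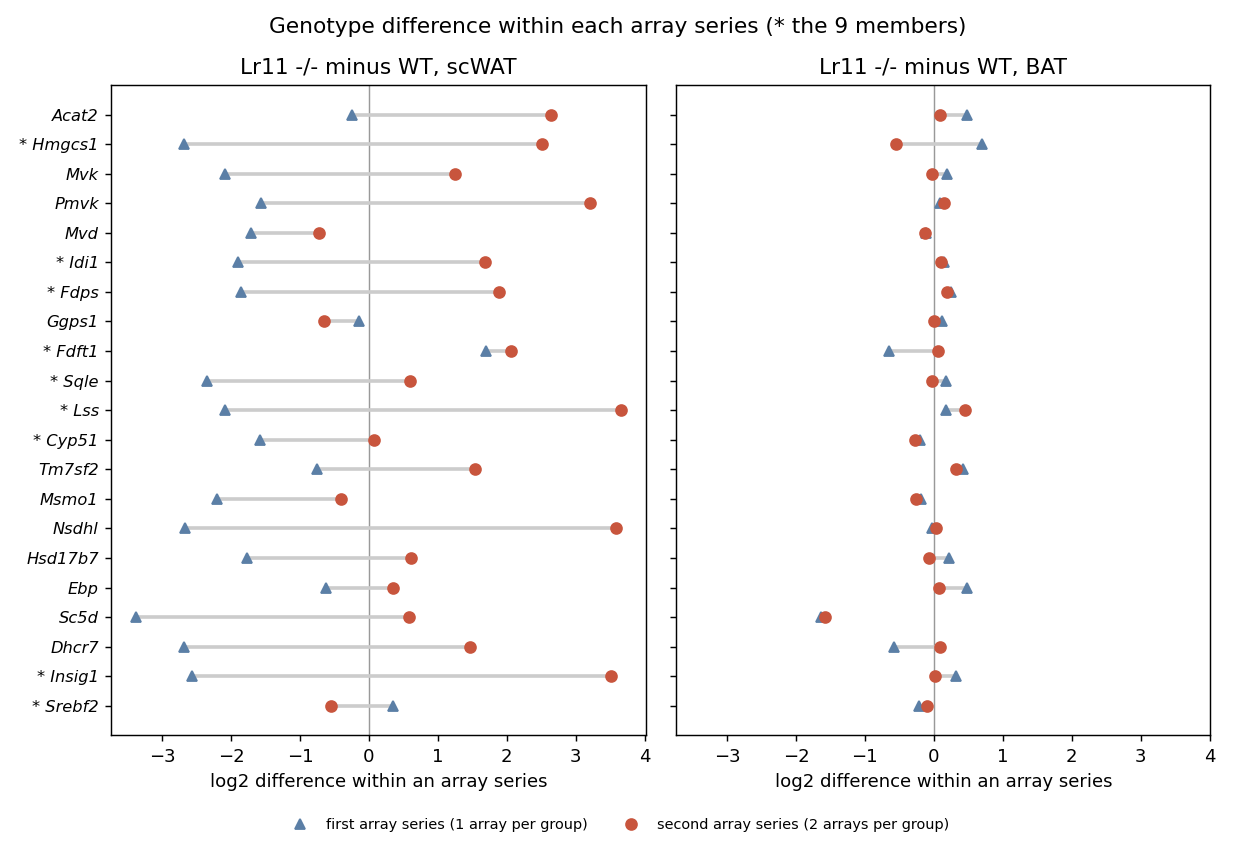
Log2 difference between *Lr11* -/- and WT (x axis) within the first array series (triangles, 1 array a group) and the second (circles, 2 arrays a group) for 19 enzymes in pathway order and 2 regulators (y axis), stars marking the 9 genes. In scWAT the points of most genes lie on opposite sides of 0, with *Fdft1* at 1.70 and 2.06, and in BAT they lie within 1 of 0 apart from *Sc5d* (-1.64 and -1.58), with *Hmgcs1* the widest pair (0.71 and -0.54).

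In BAT the genotype made no difference that could be detected in the 9 genes. The differences ran from -0.25 (*Cyp51*) to 0.36 (*Lss*), with adjusted p values of 1 for all 9. Limma called 6 of 32121 probes (0.0187%), and 680 passed at an unadjusted p under 0.05. All 9 genes overlapped between the genotypes, where 12% of all probes did not. The precision still leaves room for changes, since the 95% interval of *Fdft1* ran from -1.10 to 0.74 and that of *Insig1* from -2.01 to 2.25. These intervals rest on a spread shared by the 4 groups, and the median SD of the 9 genes was wider in scWAT. Between the series 3 of the 9 genes turned sign, each by less than 1 on both sides. *Hmgcs1* went from 0.71 to -0.54, *Fdft1* from -0.65 to 0.06 and *Sqle* from 0.17 to -0.03.

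Whether the genotype difference is another in scWAT than in BAT was tested by the interaction. It was 2.12 for *Fdft1* (SE 0.59, 95% interval 0.82 to 3.42, adjusted p = 0.38), higher in scWAT, and it passed for none of the 9 genes. No probe passed over the whole set (0%), while 3537 passed at an unadjusted p under 0.05. The difference of *Fdft1* in scWAT is therefore not shown to differ from that in BAT. In the second series alone the interaction was called for *Insig1* (3.50), *Lss* (3.21) and *Hmgcs1* (3.06), with adjusted p values of 0.028, 0.044 and 0.038, and for 2.77% of all probes.

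Between the depots of WT mice, *Fdft1* was higher in BAT than in scWAT by 1.80 (SE 0.42, 95% interval 0.88 to 2.72, 3.48-fold, limma, adjusted p = 0.013). It was the one gene of the 9 called and the one without overlap. Of all probes 7970 (24.8%) were called and 40.2% did not overlap, so 1 of 9 genes lies below the share of all probes. The other differences ran from -1.11 for *Sqle* (adjusted p = 0.33) to 1.6 for *Lss* (0.20), with 1.26 for *Hmgcs1* (0.27) and 0.94 for *Insig1* (0.49). *Fdft1* kept its sign in both series (1.5 and 1.95), although array 1 of scWAT and of BAT lay on separate slides. With the slide as a block it was 2.0 (adjusted p = 0.036). The call of *Fdft1* was lost in the second series alone and with only WT arrays in the fit (adjusted p = 0.058). It was also lost without scaling (0.050) and with the mean of its probes (0.64, adjusted p = 0.15). Leaving out the arrays rich in muscle transcripts keeps 1 WT BAT array, and the difference was then 1.95. The dim second probe of *Fdft1* gave -0.51 (SE 0.63, adjusted p = 0.57). *Hmgcs1* and *Insig1* turned sign from the first series (-1.07 and -1.81) to the second (2.43 and 2.32), and *Lss* went from 0.03 to 2.38. Limma called these 3 in the second series (adjusted p = 0.0077, 0.0066 and 0.011) beside 25.3% of all probes. Without WT scWAT 1 these 3 and *Fdft1* were called, with 31.9% of all probes, and without WT scWAT 3 *Fdft1* and *Sqle* (-2.11, adjusted p = 0.033), with 27.8% of all probes.

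The depots of *Lr11* -/- mice did not differ in any of the 9 genes past the threshold. The differences, BAT minus scWAT, ran from -0.69 for *Sqle* (adjusted p = 0.81) to 0.35 for *Hmgcs1* (0.91). *Fdft1* differed by -0.32 (SE 0.42, 95% interval -1.24 to 0.60). Limma called 13 probes in all (0.0405%), 2891 passed at an unadjusted p under 0.05, and 23.2% did not overlap, but all 9 genes overlapped. Here too the series went apart: the difference of *Hmgcs1* was 2.32 in the first series and -0.63 in the second, and that of *Lss* 2.30 and -0.83. This comparison shares the *Lr11* -/- scWAT arrays with the genotype comparison, and *Lr11* -/- scWAT 1 is the array rich in muscle and epithelial transcripts.

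Another 12 enzymes of the route were read on the same arrays. None of the 12 was called between the genotypes in scWAT or in BAT. In scWAT all 12 were lower in *Lr11* -/- in the first series, from -0.15 for *Ggps1* to -3.38 for *Sc5d*, and 9 were higher in the second, up to 3.59 for *Nsdhl*. *Mvd*, *Ggps1* and *Msmo1* were lower in both. The mean of the 12 enzymes was 2.28, 0.90 and 0.47 in WT scWAT, then 0.63, 1.87 and 1.75 in *Lr11* -/- scWAT. The 9 genes had means of 1.79, 0.45 and -0.36 and of 0.35, 1.84 and 1.70 on the same arrays. In BAT *Sc5d*, a sterol desaturase, did not overlap between the genotypes (-1.6, adjusted p = 1), where 12% of all probes did not. In scWAT *Ggps1* did not overlap (-0.48, adjusted p = 0.13), where 20.4% of all probes did not. In both lists WT scWAT 1 and *Lr11* -/- scWAT 2 and 3 stood above the other 3 scWAT arrays. BAT means lay between 1.19 and 1.65 for the 12 enzymes and between 0.90 and 1.44 for the 9 genes, muscle-rich arrays included. In the WT depots 2 of the 12 were called, where 24.8% of all probes were. *Acat2*, which makes acetoacetyl-CoA at the head of the route, was higher in BAT by 1.87 (limma, adjusted p = 0.021). *Mvd*, the mevalonate decarboxylase, was lower (-1.46, adjusted p = 0.023).

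**Figure D4:**
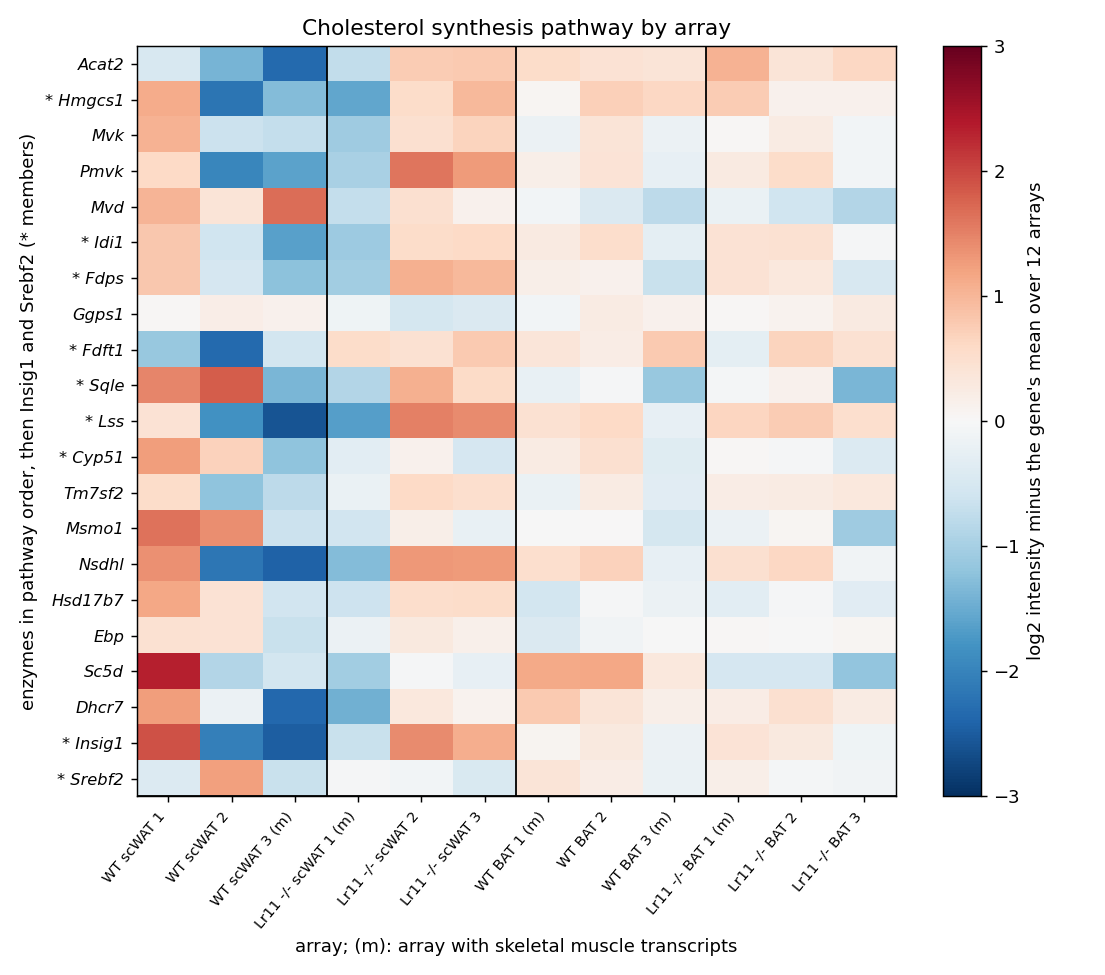
Log2 intensity of 19 enzymes in pathway order and of *Insig1* and *Srebf2* (rows) on the 12 arrays (columns), each row minus its own mean, red above and blue below, with colours ending at -3 and 3, stars for the 9 genes and (m) for arrays rich in skeletal muscle transcripts. WT scWAT 1 and *Lr11* -/- scWAT 2 and 3 are red over most rows, WT scWAT 3 and *Lr11* -/- scWAT 1 are mostly blue and WT scWAT 2 is mixed, and *Fdft1* is blue on all 3 WT scWAT arrays.

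Genes around the pathway were counted as lists, each read from its brightest probe. Of 8 genes that process or regulate SREBP none was called between genotypes, and in the WT depots *Mbtps2*, a protease that cuts SREBP, was lower in BAT (-1.07, adjusted p = 0.030). *Srebf1*, the gene of the SREBP that drives fatty acid synthesis, differed by 1.95 in scWAT (adjusted p = 0.11), with -0.96 in the first series and 3.41 in the second. Of 10 genes of cholesterol uptake and transport within the cell none was called between genotypes. In the WT depots *Mylip*, which marks the LDL receptor for breakdown, was lower in BAT (-1.03, limma, adjusted p = 0.048). *Mbtps2* and *Mylip* were each the only gene of their list called in the WT depots, beside 24.8% of all probes.

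Of 9 genes of cholesterol efflux, esterification and LXR none was called between genotypes. In the WT depots 4 passed, where 24.8% of all probes did. *Soat1*, which esterifies cholesterol, was not well above background on any WT BAT array. Only a bound can be given for it, a group mean at least 6.34-fold lower in BAT (adjusted p = 0.031). The bound sets each BAT array at the lowest signal of its probes well above background, or at the probe's own where that was higher. The mean of BAT was then -4.74, while the WT scWAT arrays ran from -3.65 to 0.46 (mean -2.07, SD 2.22). The bound holds for the means, and the lower WT scWAT arrays lay closer to BAT. The exporter *Abcg1* (-1.59) was lower in BAT, while *Cyp27a1*, a sterol hydroxylase, was higher by 2.22 and *Nr1h2*, an LXR receptor, by 0.83. WT scWAT 2, the array with the highest macrophage mean, had the highest mean of this list too (2.51, against 1.71 or less elsewhere).

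Fatty acid synthesis, driven by the sister factor SREBP-1, was read for comparison. Of 10 tested genes 2 rose in *Lr11* -/- scWAT, *Elovl6*, an elongase, by 4.45 and *Acaca*, the acetyl-CoA carboxylase, by 3.75, with a list median of 2.44. Of all probes 5.27% were called in that comparison. The 9 cholesterol genes had a median of 0.64 and all tested probes 0.04 in that comparison. In BAT none was called and the median was 0.07, against 0.04 for both the 9 genes and all probes. The fatty acid list means were 3.29, 0.64 and 1.93 in WT scWAT, then 2.70, 5.18 and 5.09 in *Lr11* -/- scWAT. In the first series the list mean of the *Lr11* -/- array thus again lay below that of the WT array. The 2 called genes did not turn. *Elovl6* was higher in *Lr11* -/- scWAT by 1.43 in the first series and 5.97 in the second, *Acaca* by 1.38 and 4.93. In the WT depots 5 of the 10 were higher in BAT (*Thrsp*, *Fasn*, *Elovl6*, *Acaca* and *Scd1*, by 5.87, 5.43, 5.17, 4.15 and 1.92), where 24.8% of all probes were called. Of the marker lists, brown adipocyte genes were the one list with calls between the genotypes, 3 of 8 and all in scWAT (*Ucp1*, *Cidea* and *Cox7a1*, higher in *Lr11* -/- by 10.14, 8.70 and 5.70). In that comparison 6 of the 8 were higher, while *Lhx8* (-2.67) and *Zic1* (-1.65) were lower and not called. *Ucp1* and *Cidea* were above background on 2 of the 3 WT scWAT arrays, so their differences rest in part on a value at background, that of WT scWAT 2.

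**Figure D5:**
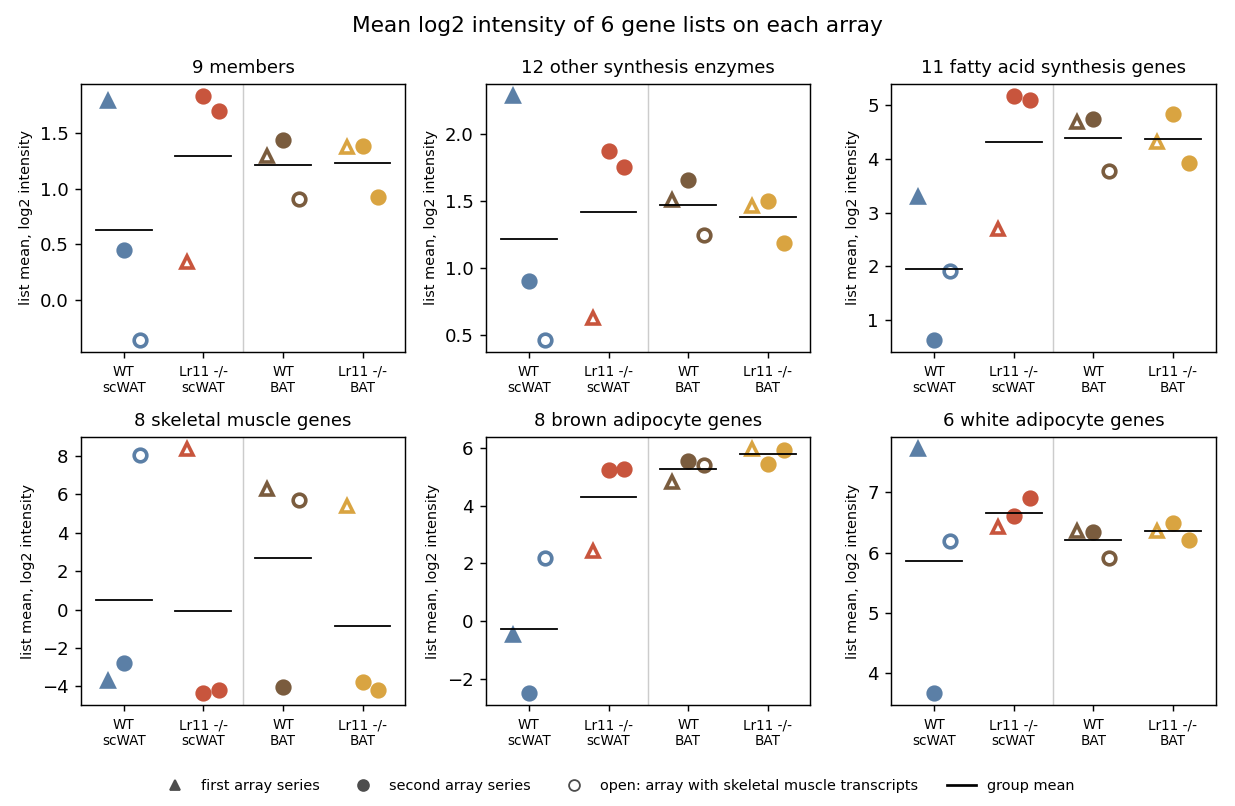
Mean log2 intensity of 6 gene lists (y axis) on the 3 arrays of each group (x axis), with lines for group means, triangles for the first array series, circles for the second and open symbols for arrays rich in skeletal muscle transcripts. The 9 genes and the 12 other enzymes have the same 3 high and 3 low scWAT arrays, the muscle list splits 5 arrays from 7, and WT scWAT 2 is lowest in white adipocyte genes (3.66).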

How the data were processed

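The authors deposited 1 scanner file per array from Agilent Feature Extraction 10.10.1.1, in which the intensity of each spot is background-subtracted and detrended within the array and neither normalized between arrays nor taken to log2. The series table deposited beside them repeats these intensities (largest difference 0). Control spots and the 128 to 181 outlier spots on each array were dropped, log2 values of spots of a probe were averaged, and every array was scaled by subtracting its 75th percentile. Each array had 32377 to 37002 spots well above background and 0 saturated ones. A probe was tested where at least a share of 0.5 of its spots was well above background on all 3 arrays of 1 group or more, which left 32121 of 55681 probes.

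Groups came from the source and genotype labels, and replicate 1 to 3 are names, array 1 being that of the first series. Differences were fitted with limma 3.58.1 in R 4.3.3 (lmFit and eBayes) with 1 mean for each of the 4 groups over all 12 arrays, for 5 comparisons, with p adjusted by Benjamini-Hochberg across all tested probes and calls made under 0.05. The same steps were tested on simulated data. Probes were named through RefSeq accessions and a gene table of assembly GRCm38.p6 (27235 probes matched). The 9 genes and all lists were chosen with earlier results of these data known. Named genes are the 9 members, *Sorl1*, *Ucp1* and the 5 genes with the nearest profile. Up to 4 called genes of each other list with the largest difference are named too. *Srebf1*, *Nsdhl*, *Ggps1*, *Msmo1*, *Sc5d*, *Scd1*, *Lhx8* and *Zic1* were named after their values were seen. Some enzymes of the list of other synthesis enzymes are not reported here and were left out of its counts and means. The marker lists cover white and brown adipocytes, skeletal muscle, macrophages, B lymphocytes and epithelium. Of these, B lymphocyte genes had 0 calls in any comparison and a mean of -3.00 or less on every array. In the WT depots 5 of 5 macrophage genes were lower in BAT and 2 white and 5 brown adipocyte genes higher, beside 24.8% of all probes called. The alternatives in the closing section were other scalings, filters, background corrections, blocks, array weights, single array series and each array left out in turn. Leaving out the muscle-rich arrays and the muscle covariate were added after seeing the data. Figures were drawn with Python 3.11.15 and matplotlib 3.10.9.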

Additional observations from a re-analysis of the deposited data

How the results depend on the processing

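*Fdft1* kept its sign in all 29 alternatives, none of which read its dim second probe alone. It ran from 0.92 to 2.36 for the genotype difference in scWAT and from 0.64 to 2.19 between the WT depots. Its adjusted p ran from 0.0078 to 0.31 and from 0.0049 to 0.15. The second probe alone gave the other sign in these comparisons, -0.11 and -0.51 (SE 0.63). With the muscle mean as a covariate *Fdft1* was the one gene called in both, beside 2074 and 9260 of 32121 probes. Of the 9 genes 0 were called between the genotypes in scWAT without scaling, without the filter on dim probes, with the slide as a block, with only the compared arrays in the fit and with the mean of all probes of a gene. Array weights called 2 there (*Fdft1* and *Lss*), with 11.4% of all probes, and the second array series alone 6. Between the WT depots 0 were called without scaling, with only the compared arrays, with the mean of all probes and without the arrays rich in muscle transcripts, and 3 in the second series alone, where the interaction was called for 3 as well. Leaving out 1 array at a time gave 0 to 2 calls between the genotypes in scWAT and 1 to 4 between the WT depots. Of all 32121 probes the same fits called 3 to 6371 and 3276 to 10231, so the background moved as well. Between the genotypes in BAT and between the *Lr11* -/- depots 0 of the 9 genes were called in every alternative. Over all probes, the calls between the genotypes in scWAT ran from 0, with only the compared arrays in the fit, to 7259, in the second series alone, against 1692 in the reported fit. There were 3 without *Lr11* -/- scWAT 3 and 6371 without *Lr11* -/- scWAT 1. The cause of these shifts was not tested.

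Uncalled differences that changed sign are given here by setting. In the first series alone, which allows no test, 6 turned between the genotypes in scWAT and *Hmgcs1* (0.71) in BAT. For the WT depots *Fdps* (-0.65), *Hmgcs1* (-1.07), *Idi1* (-0.54) and *Insig1* (-1.81) turned there, for the *Lr11* -/- depots *Fdps* (1.47), *Insig1* (1.08) and *Sqle* (0.82), and for the interaction *Fdps* (-2.11), *Hmgcs1* (-3.39), *Idi1* (-2.06), *Insig1* (-2.89), *Lss* (-2.26) and *Srebf2* (0.56). The other settings follow. For the *Lr11* -/- depots these were *Cyp51* without scaling (-0.028), *Cyp51* (-0.036), *Hmgcs1* (-0.63), *Idi1* (-0.37) and *Lss* (-0.83) in the second series alone and, with the same values, without the muscle-rich arrays, the same 4 with array weights (-0.10, -0.35, -0.27 and -0.72), and *Srebf2* with the mean of its probes (-0.24). Between the genotypes in BAT they were *Sqle* without scaling (-0.016), *Fdft1* (0.058) and *Sqle* (-0.027) in the second series, *Sqle* with array weights (-0.17), *Fdft1* (0.35), *Fdps* (-0.21), *Idi1* (-0.31), *Insig1* (-0.21) and *Sqle* (-0.58) without the muscle-rich arrays, which leave 1 WT BAT array that is assumed to vary like the rest, and *Fdps* (-0.093), *Idi1* (-0.21), *Insig1* (-0.28), *Lss* (-0.13) and *Sqle* (-0.37) with the muscle mean as a covariate. In scWAT between the genotypes *Cyp51* (0.079) and *Sqle* (0.60) turned in the second series and *Sqle* (0.46) with array weights. Between the WT depots *Fdps* (-0.13) and *Srebf2* (-0.23) turned without scaling, *Cyp51* (0.31) and *Srebf2* (-0.26) in the second series, *Cyp51* (0.10) with array weights, *Fdps* (-0.033) and *Srebf2* (-0.18) without the muscle-rich arrays, *Cyp51* (0.026), *Fdps* (-0.037) and *Srebf2* (-0.095) with the slide as a block, *Cyp51* with median scaling (0.0076) and with the muscle covariate (0.0070), *Fdps* with quantile normalization (-0.0032), and *Srebf2* with the mean of its probes (-0.95). The interaction turned for *Cyp51* (0.35) and *Sqle* (0.63) in the second series and for *Cyp51* (0.19), *Sqle* (0.63) and *Srebf2* (0.12) with array weights.

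Leaving out 1 array at a time turned the sign of some differences, whose ranges follow. Between the genotypes in scWAT they were -1.20 to 0.031 for *Cyp51*, -0.084 to 1.13 for *Idi1*, -1.38 to 0.20 for *Sqle* and -0.61 to 0.34 for *Srebf2*. Between the genotypes in BAT they were -0.37 to 0.11 for *Fdft1*, -0.060 to 0.49 for *Fdps*, -0.11 to 0.30 for *Idi1* and -0.30 to 0.51 for *Sqle*. For the WT depots the ranges were -0.85 to 0.38 for *Cyp51*, -0.28 to 0.74 for *Fdps* and -0.27 to 0.67 for *Srebf2*. For the *Lr11* -/- depots they were -0.038 to 0.28 for *Cyp51*, -0.93 to 0.13 for *Fdps*, -0.42 to 0.85 for *Hmgcs1*, -0.30 to 0.55 for *Idi1* and -0.83 to 0.75 for *Lss*. For the interaction they were -0.95 to 0.28 for *Cyp51*, -0.034 to 1.11 for *Fdps*, -0.20 to 1.01 for *Idi1*, -1.42 to 0.16 for *Sqle* and -0.47 to 0.47 for *Srebf2*. No paired analysis was possible because the labels carry no replicate numbers. The number of arrays limits the precision, and of the 11 probes of the 9 genes the one near background is the second of *Fdft1*.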

Other observations

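The profile of the 9 genes over the 12 arrays, each gene centred on its own mean and the 9 then averaged, had an SD of 0.66 and was high on WT scWAT 1 and *Lr11* -/- scWAT 2 and 3. *Idi1* (root mean square difference 0.16) and *Fdps* (0.26) lay closest to this mean profile and *Fdft1* (0.94) and *Sqle* (0.89) farthest from it. Each of the 9 is part of that mean, so some closeness is built in. *Fdft1*, *Sqle* and *Srebf2* (0.80) still lay beyond the median of 0.77 over the other named genes. The measure counts the size of changes as well as their pattern, so it does not rank likeness of pattern alone. *Lss* (0.69) and *Insig1* (0.66) were high on WT scWAT 1 and *Lr11* -/- scWAT 2 and 3, yet lay farther off than *Idi1* and *Fdps*. Among the 14694 other named genes tested, the 5 with the smallest root mean square difference were *Haus3* (0.18), *Mta3* (0.21), *Rmc1* (0.22), *2610528A11Rik* (0.22) and *Ube2w* (0.23), against a median of 0.77 over all genes. *Haus3* read 0.39, -0.36 and -1.25 relative to its own mean in WT scWAT, then -0.67, 0.82 and 0.69 in *Lr11* -/- scWAT. These are likenesses over 12 arrays that share slides and tissue makeup.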
